A study of Mus musculus with 4 samples.

Results

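Krt5, Krt14, Krt15 and Krt17 are keratin genes expressed in basal epidermal cells and their appendages, and they are 4 of the 21853 protein-coding genes of the mouse annotation. Open chromatin around them was taken from the deposited peak lists by position alone: a peak belonged to a gene when its centre lay within 50 kb of the start site of the gene's principal transcript. By this rule 25 of 65467 control peaks and 7 of 3103 AP-2-dependent regions belonged to these genes. The limit cut through no group of peaks: the farthest control peak inside lay 37.5 kb from its nearest basal keratin start and the nearest outside 57.3 kb (with a summit −log10 p, the caller's measure of how far the signal exceeds the background, of 6.57 and 6.55), and for regions these distances were 30.4 and 57.2 kb (7.53 and 3.77).

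The study profiled nucleosome-free DNA by ATAC-seq, which tags open chromatin by transposase insertion, in facial surface ectoderm freed from mesenchyme with Dispase at embryonic day 11.5. Control embryos (Tfap2aflox/+; Tfap2bflox/+, 2 libraries) were littermates lacking Crect, and EDKO embryos (Tfap2afl/fl;Tfap2bfl/fl;CRECT, where fl is the same floxed allele and CRECT the Crect transgene, 2 libraries) were bred to lose AP-2α and AP-2β in the ectoderm. Thus each control embryo already carried 1 floxed copy of both genes, and the comparison with EDKO also differs in the presence of the Cre transgene. Crect is driven by an intronic enhancer of Tfap2a and can recombine more broadly than in the ectoderm, which the study countered by passing it through sires tested with reporter lines, and the ectoderm was pooled from the facial prominences. A control peak is an interval called on both control libraries together, and an AP-2-dependent region is an interval called on the same control libraries with both EDKO libraries as background, that is, with higher accessibility in control than in EDKO. Since each list is a single combined call, no peak has a value per library, the lists hold no value that checks the deletion, and differences between peaks cannot be set against the spread between replicates.

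Keratins build the intermediate filaments of epithelial cells from pairs of a type I and a type II protein. KRT5 (type II) and KRT14 (type I) are the classic pair of the basal layer of stratified epithelia. KRT15 is a further type I keratin of basal and hair follicle progenitor cells, and KRT17 is a type I keratin of the embryonic epidermis, the skin appendages and wounded skin. Keratin genes lie in a type I and a type II cluster, and AP-2 factors, which bind GC-rich palindromes, have long been studied at keratin promoters in cultured keratinocytes.

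All 4 genes are read from the minus strand of mm10 (GRCm38). Krt5 (ENSMUSG00000061527) lies at chr15:101707070-101712898 and has 9 exons. The other 3 genes have 8 exons each and lie together on chromosome 11, Krt15 (ENSMUSG00000054146) at chr11:100131758-100135928, Krt14 (ENSMUSG00000045545) at chr11:100203162-100207548 and Krt17 (ENSMUSG00000035557) at chr11:100256217-100261029. The start site of Krt14 is 71.6 kb from that of Krt15 and 53.5 kb from that of Krt17, so neighbouring windows meet, and 2 control peaks and 1 region were within 50 kb of both Krt14 and Krt15.

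The DNA of 6 of the 7 regions is shown first, because the results turn on where these stretches lie and on whether they hold the letters that AP-2 factors favour. The region left out is that at the Krt15 start, which runs into the transcribed part of the gene; its AP-2 match is given with the strings. Each is written 5′ to 3′ on the minus strand, which is the coding strand of the keratin genes. Capitals mark a match to either AP-2 string searched, GCCNNNGGC or SCCYNRGGS (S is C or G, Y is C or T, R is A or G). The Krt5 promoter comes from RefSeq (GRCm38.p6, chr15:101712906-101713155, the 250 bases before the RefSeq start, which is 7 bp from the start used here) and contains most of the region at the Krt5 start. The others are the 299 bases around the summits of the regions 3.17 kb and 20.1 kb upstream of Krt5 (chr15:101715886-101716184 and chr15:101732846-101733144) and of the region between Krt15 and Krt14 (chr11:100176889-100177187), the whole region upstream of Krt14 (chr11:100208626-100208837) and the whole region 28.2 kb upstream of Krt17 (chr11:100289065-100289362).
Krt5 promoter: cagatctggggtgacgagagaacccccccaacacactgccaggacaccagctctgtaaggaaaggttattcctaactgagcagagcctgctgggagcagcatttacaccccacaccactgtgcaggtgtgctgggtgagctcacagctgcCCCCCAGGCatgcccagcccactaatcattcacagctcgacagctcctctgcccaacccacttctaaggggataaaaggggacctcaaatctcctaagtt
Krt5, 3.17 kb upstream: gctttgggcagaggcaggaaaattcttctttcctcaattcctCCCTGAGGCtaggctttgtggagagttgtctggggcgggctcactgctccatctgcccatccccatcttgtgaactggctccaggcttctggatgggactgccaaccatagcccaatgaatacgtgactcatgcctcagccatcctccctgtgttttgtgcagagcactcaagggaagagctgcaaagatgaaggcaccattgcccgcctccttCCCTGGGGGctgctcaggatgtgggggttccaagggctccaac
Krt5, 20.1 kb upstream: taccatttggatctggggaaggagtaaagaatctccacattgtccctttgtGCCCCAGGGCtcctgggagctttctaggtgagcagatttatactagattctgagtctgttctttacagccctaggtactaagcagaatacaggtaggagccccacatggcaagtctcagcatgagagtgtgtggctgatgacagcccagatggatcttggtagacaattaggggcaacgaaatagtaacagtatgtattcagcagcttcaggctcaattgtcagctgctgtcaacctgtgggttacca
Krt14, 1.18 kb upstream: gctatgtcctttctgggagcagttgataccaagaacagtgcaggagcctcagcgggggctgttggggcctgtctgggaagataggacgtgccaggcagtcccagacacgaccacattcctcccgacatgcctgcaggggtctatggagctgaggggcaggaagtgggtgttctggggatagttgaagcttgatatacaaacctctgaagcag
Between Krt15 and Krt14: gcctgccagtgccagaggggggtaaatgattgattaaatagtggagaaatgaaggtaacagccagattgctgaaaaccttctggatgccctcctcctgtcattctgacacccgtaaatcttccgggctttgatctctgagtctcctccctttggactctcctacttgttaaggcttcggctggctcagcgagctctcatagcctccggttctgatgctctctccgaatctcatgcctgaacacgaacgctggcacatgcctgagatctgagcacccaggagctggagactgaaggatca
Krt17, 28.2 kb upstream: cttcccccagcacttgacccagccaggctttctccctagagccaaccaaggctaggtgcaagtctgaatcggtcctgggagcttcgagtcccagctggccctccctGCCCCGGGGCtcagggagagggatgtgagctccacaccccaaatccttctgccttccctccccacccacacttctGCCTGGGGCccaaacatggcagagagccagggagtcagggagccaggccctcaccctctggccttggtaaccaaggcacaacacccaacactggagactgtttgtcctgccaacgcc

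The data show that chromatin over the start sites of all 4 basal keratins was open in control facial ectoderm, and that the start-site peaks of Krt5, Krt14 and Krt15, but not that of Krt17, held an AP-2-dependent region. Over all genes, 14008 (64.1%) had a control peak within 500 bp of the start site, and 1.22% of these held a region, against 3 of the 4 basal keratins. For Krt14 this rests on the start used here: the RefSeq start, 1518 bp downstream, lies in another control peak, which held no region. A region within 50 kb of the start site was present for 4 of 4 basal keratins, against 11.0% of all protein-coding genes. It was also present for 17 of the 49 other keratin genes, some of which lie near these same regions. This measure is therefore not particular to the basal keratins. Of the 25 control peaks, 7 held a region (28.0%, exact binomial 95% interval 12.1 to 49.4), against 4.48% of all control peaks. With a minimum area under the curve of 500 in both lists, a sum of significance over the interval, the share was 5.00% (1 of 20) against 2.46%, and no region was left at a start site. The first interval covers counting error only, since peaks are not replicates and neighbouring peaks share a locus. No test of these differences was run, since the peak lists hold no values per library, and the genes were chosen with results of these data known.

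**Figure D1:**
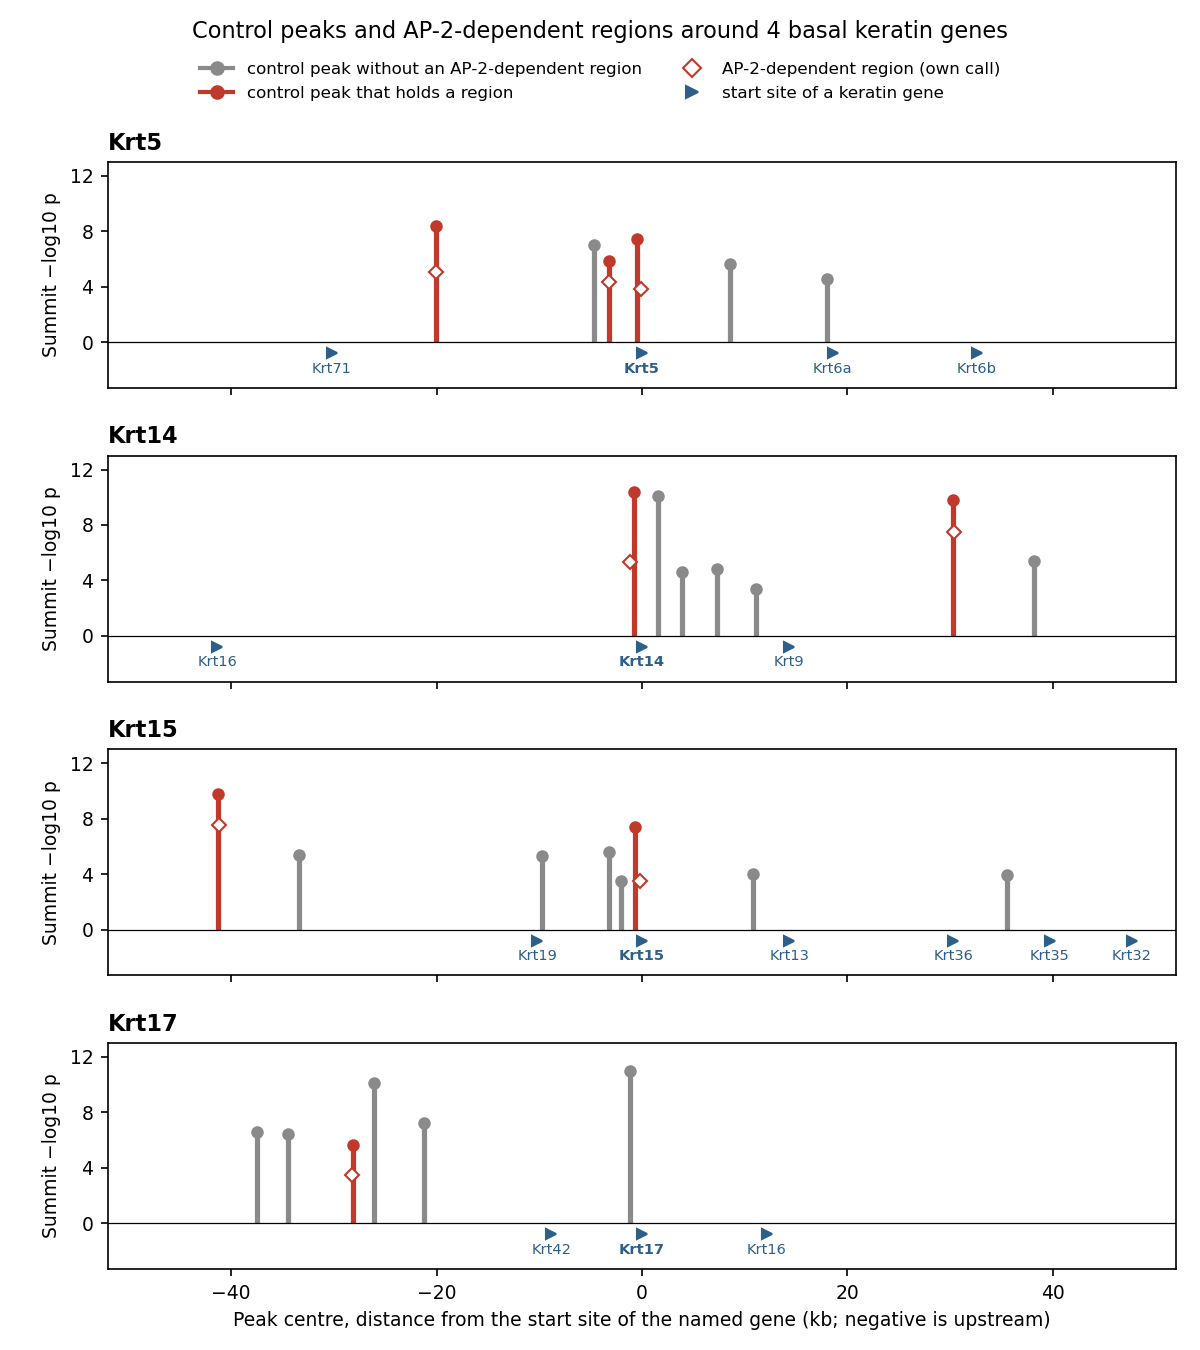
Control peaks within 50 kb of Krt5, Krt14, Krt15 and Krt17. The horizontal axis is the distance of the peak centre from the start site in kb (negative is upstream), and the vertical axis is the summit −log10 p of the peak in its own list. Red stems are control peaks that hold an AP-2-dependent region, grey stems are the others, open diamonds are the regions in their own call, and blue arrowheads are keratin start sites. Each gene has a peak at its start, the Krt17 start-site peak is grey, and the 51.7 kb upstream of Krt14 up to Krt17 hold no peak.

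Krt5, the type II basal keratin, had 6 control peaks and 3 regions within 50 kb, the most regions of the 4 genes. Its start-site peak was 3025 bp wide, wider than or as wide as 98.7% of control peaks and 95.1% of start-site peaks. The peak reached 1974 bp upstream and 1050 bp into the gene. The summit −log10 p was 7.46, and the summit lay 97 bp upstream of the start site. Thus the peak was among the widest of the list, while its summit was below the median of 9.59 over genes with a start-site peak, of which 25.5% had an equal or lower one. Of the 31-base words in this peak, 10.1% occur elsewhere in the genome too, against 0% in the region inside it. The region inside it (chr15:101712899-101713118, 220 bp) began at the base next to the start site and filled 7.27% of the peak. Its summit −log10 p was 3.85, at or above 23.3% of the AP-2-dependent regions, and its summit lay 74 bp from that of the control peak. The call at the Krt5 promoter was therefore a narrow stretch of a broad open domain, and it contained the summit of that domain.

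The next 2 control peaks upstream of Krt5 differed. The peak 3.21 kb upstream had a summit −log10 p of 5.86, and a region of 345 bp (chr15:101715900-101716244, summit −log10 p 4.31) filled 63.4% of it. The peak 4.64 kb upstream had a higher summit, 7.0, and held no region. The farthest upstream peak, 20.1 kb from the start, had the highest summit of the Krt5 window, 8.41, and a region of 425 bp (chr15:101732756-101733180, summit −log10 p 5.06) filled 79.4% of it with its summit at the same base (a gap of 0 bp). The nearest start site to this region was that of Krt71, a hair follicle inner root sheath keratin, at 10.1 kb, and a peak position does not tell which gene a region acts on. Downstream, the peaks 8.57 kb (5.62) and 18.0 kb (4.59) from the Krt5 start held no region, the latter lying 0.596 kb from the start of Krt6a, a keratin of hair follicles and wounded skin.

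Krt14, the type I partner of Krt5, had 7 control peaks and 2 regions within 50 kb. Its start-site peak had a summit −log10 p of 10.4, at or above 90.7% of control peaks and 60.9% of start-site peaks. It was 2029 bp wide and had its summit 1216 bp upstream of the start site. The region in it (chr11:100208626-100208837, 212 bp) had a summit −log10 p of 5.31, at or above 73.8% of the regions, with its summit 5 bp from that of the control peak, although it filled only 10.4% of the peak. At Krt14 the difference was thus called at the upstream crest of the peak, 1.18 kb from the start site, whereas at Krt5 and Krt15 it touched the start site. A further peak in intron 1 of Krt14 was almost as high (10.1, 1774 bp wide, summit 1468 bp downstream of the start) and held no region. The RefSeq promoter table puts the Krt14 start 1518 bp downstream of the start used here, inside this intron 1 peak. The 3 remaining peaks nearer than 30 kb, at 3.89 kb (intron 7), 7.28 kb and 11.1 kb downstream, were low (4.64, 4.81 and 3.38) and held no region. The peak 38.2 kb downstream, which is also 33.4 kb upstream of Krt15, had a summit of 5.40 and no region.

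The region with the highest summit near any of the basal keratins stood between Krt15 and Krt14 (chr11:100176839-100177405, 567 bp), 30.4 kb downstream of the Krt14 start and 41.2 kb upstream of the Krt15 start. Its summit −log10 p was 7.53, at or above 89.0% of the regions, and its area under the curve was 1187. The other 6 regions had areas from 211 to 483, against a median of 395 over all regions. It filled 45.2% of a control peak with a summit of 9.78. The nearest start site was that of Krt9, a keratin of palm and sole epidermis, at 16.1 kb, and the Krt9 start itself had no control peak. It was the 1 region near the basal keratins with an area of at least 500, as 36.4% of all regions had.

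Krt15 had 8 control peaks and 2 regions within 50 kb, the second region being the one shared with Krt14. Its start-site peak had a summit −log10 p of 7.38, at or above 24.8% of start-site peaks. It was 1812 bp wide, with its summit 346 bp upstream of the start. The region in it (chr11:100135818-100136384, 567 bp) was the only 1 of the 7 to cover a member's start site and filled 31.3% of the peak, but was among the lowest, with a summit of 3.52, at or above 8.67% of the regions. Its summit lay 45 bp from that of the control peak. The peaks 2.03 kb and 3.25 kb upstream (3.48 and 5.62) held no region, nor did the peak at 9.70 kb (5.32), which covers the start of Krt19, a simple-epithelium keratin, with its summit in Krt19 intron 1. The 2 peaks downstream of Krt15 were low, 4.03 at 10.8 kb and 3.94 at 35.5 kb.

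Krt17 had 6 control peaks, 1 region within 50 kb and no region nearest to its own start. Its start-site peak had the highest summit of all 25 peaks, 11.0, at or above 92.7% of control peaks and 68.4% of start-site peaks. It was 2410 bp wide and lay almost wholly upstream, reaching 2385 bp before the start site and 24 bp into the gene, with its summit 1249 bp upstream. No region overlapped it. Upstream of it, 5 peaks stood between 21.2 and 37.5 kb from the start, with summits of 7.26, 10.1, 5.63, 6.43 and 6.57 in order of distance. The lowest of these, 28.1 kb upstream, held a region of 298 bp (chr11:100289065-100289362) that filled 74.9% of it and had the lowest summit of the 7 regions, 3.49. It lies in Gm14206, a gene antisense to the keratins, and its nearest protein-coding start is that of Krt42 at 19.3 kb. The stretch of 51.7 kb between the start-site peaks of Krt14 and Krt17, which contains the start of Krt16, held no control peak.

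**Figure D2:**
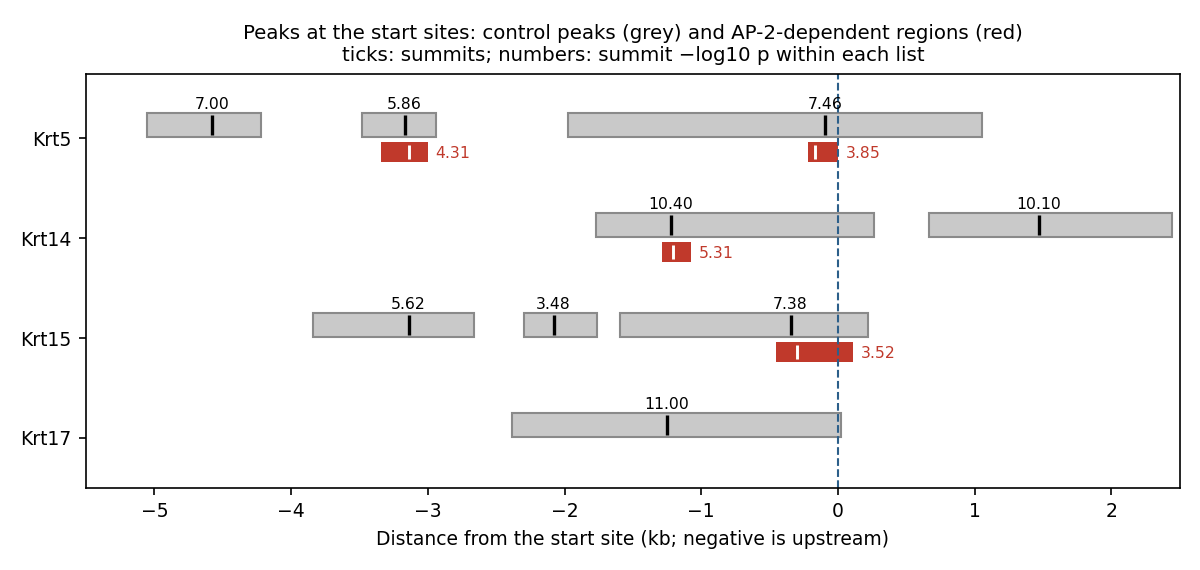
Peaks around the 4 start sites, drawn to scale. The horizontal axis is the distance from the start site in kb (negative is upstream). Grey bars are control peaks and red bars AP-2-dependent regions, ticks are summits, and numbers are the summit −log10 p, which can be compared within a list only. The red bars at Krt5 and Krt15 touch the start site, the one at Krt14 sits under the summit 1216 bp upstream, and Krt17 has none.

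The 7 control peaks that held a region had summits from 5.63 to 10.4, and the 18 without one from 3.38 to 11.0. All 7 regions lay wholly inside a control peak, 1 region to a peak, with the 2 summits 0 to 74 bp apart. Both lists were called on the same control libraries, so such nesting is partly built into the calls. Its share over the whole lists is not given here. Regions in the start-site peaks filled 7.27% to 31.3% of the peak, and the other 4 filled 45.2% to 79.4%. When an overlap was required to fill at least 50% of each interval, 3 of 25 control peaks (12.0%) kept a region, those 3.21 and 20.1 kb upstream of Krt5 and 28.1 kb upstream of Krt17, against 2.87% over the whole list. A region was held by 4 of 15 peaks within 5 kb of a protein-coding start (26.7%, 7.79 to 55.1), where the whole list had 1.53%. Farther away it was 3 of 10 (30.0%, 6.67 to 65.2), where the whole list had 5.74%. The median summit −log10 p of the 25 control peaks was 5.86, against 5.10 over all control peaks, and their median width 725 bp against 560 bp. For the 7 regions the medians were 4.31 and 345 bp, against 4.40 and 360 bp over all regions.

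The nearest start site gave fewer assignments than the window. Of the 25 control peaks, 11 had a basal keratin as the nearest protein-coding start, namely 4 for Krt5, 3 for Krt14, 3 for Krt15 and 1 for Krt17. Of the 7 regions, 4 did, 2 for Krt5 and 1 each for Krt14 and Krt15. The other 3 were nearest to Krt71, Krt9 and Krt42, none of which had a control peak at its start.

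AP-2 strings were present in some of these regions and absent from others. Within 100 bp of the summit, GCCNNNGGC, searched on both strands, was found in 1 of the 7 regions, that at Krt15 (GCCTAGGGC, 67 bp from the summit), against 22.7% of all regions. The degenerate string SCCYNRGGS, which can match the same bases, was found in 4 of 7 regions, against 49.6% of all regions and 20.3% of all control peaks. In the Krt5 promoter it read CCCCCAGGC, centred 96 bp upstream of the RefSeq start, 6 bp from the summit of the control peak and 68 bp from that of the region. Over the 32851 promoter sequences of the same length, 14.8% held this string and 13.7% held GCCNNNGGC.

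At the region 3.17 kb upstream of Krt5, the sequence above held matches on either side of the summit, CCCTGAGGC at 103 bp and CCCTGGGGG at 111 bp, and an AP-1 string, TGACTCA, at 20 bp. The region 20.1 kb upstream held overlapping matches at 93 and 94 bp and a further match at 155 bp, beyond the stretch printed. The region near Krt17 held GCCTGGGGC 133 bp from its summit and overlapping matches at 58 and 59 bp. In contrast, neither string was found anywhere in the Krt14 region or in the region between Krt15 and Krt14, which had the highest summits of the 7. In the Krt14 start-site peak the 1 match to GCCNNNGGC lay 224 bp from the summit and outside the region. The Krt17 start-site peak, which held no region, had a match to GCCNNNGGC 91 bp from its summit. Of the 25 control peaks, 3 held GCCNNNGGC within 100 bp of the summit, against 14.4% of all control peaks, and 8 held SCCYNRGGS. A match is a description of letters and not evidence of binding.

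Open start sites were uncommon among the keratin genes, at 13 of 53, against 64.1% of all protein-coding genes. In the type I cluster 4 of 27 keratin genes had a control peak at the start site, the 3 basal keratins Krt14, Krt15 and Krt17 and the simple-epithelium keratin Krt19. In the type II cluster 9 of 26 did, Krt5 among them. Start-site summits of the basal keratins were 11.0 (Krt17), 10.4 (Krt14), 7.46 (Krt5) and 7.38 (Krt15), and those of the other 9 open keratins ran from 3.73 (Krt87) to 10.2 (Krt8), with Krt86 at 4.56 and Krt72, a keratin of the hair follicle inner root sheath, at 7.43. Of the 13 open keratin start sites, 4 held a region: Krt5, Krt14, Krt15 and Krt8, whose region 1.21 kb upstream of the start had a summit −log10 p of 7.24. Over all genes with a start-site peak the share was 1.22%. In all, 10 regions had a keratin as the nearest start site, and 7 of these were the regions described here. The other 3 were nearest to Krt8, Krt32 and Krt33a.

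**Figure D3:**
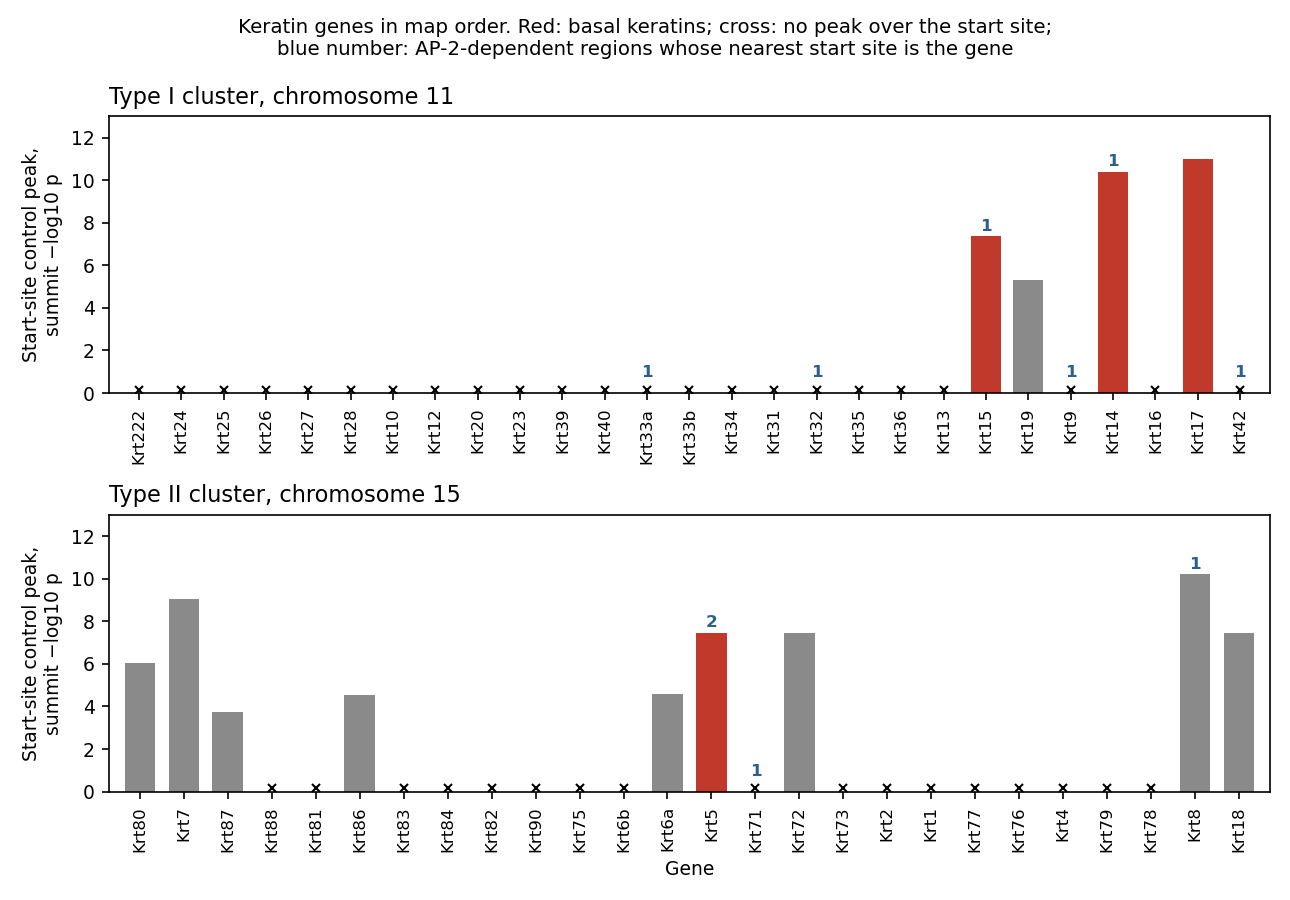
Start-site control peaks of the keratin genes in map order, for the type I cluster on chromosome 11 and the type II cluster on chromosome 15. Bars give the summit −log10 p of the control peak within 500 bp of the start site, red for the basal keratins. A cross marks a gene with no such peak, and blue numbers count the AP-2-dependent regions nearest to the gene. In the type I cluster the open start sites are those of Krt15, Krt19, Krt14 and Krt17, and Krt5 has the most regions, 2.

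Keratins of other layers and cell types differed in how many start sites were open. Of 8 suprabasal, wound or hair follicle keratins (Krt1, Krt10, Krt4, Krt13, Krt6a, Krt6b, Krt16 and Krt75), 1 had a start-site peak, Krt6a, and none held a region in it. A region within 50 kb was present for 4 of the 8, against 11.0% of all protein-coding genes. This list leaves out other keratins of hair, such as Krt72, Krt86 and Krt87, whose start sites were open. Of the 49 control peaks within 50 kb of these genes, 7 held a region (14.3%), but 23 of the 49, with 6 of the 7 regions, were the peaks of the basal keratins counted again, and 1 of the remaining 26 held a region. Of 4 simple-epithelium keratins (Krt7, Krt8, Krt18 and Krt19), 4 had a start-site peak and 1, Krt8, held a region in it. A region within 50 kb was present for 3 of the 4. Outside the basal windows, 1 of 31 control peaks near the simple-epithelium keratins held a region. Over all control peaks the share was 4.48%, so the counts outside the basal windows were near the whole-list share.

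Regulators and adhesion genes of the epidermis were open at the start site as well, and none held a region in its start-site peak, where the share over all genes was 1.22%. Of 8 regulators, 8 had a start-site peak and 4 had a region within 50 kb, namely Trp63, which encodes the master regulator p63, with 4 regions, and Grhl3, Tfap2a and Tfap2b with 1 each. Klf4, Klf5, Grhl2 and Tfap2c had none, and the share over all genes was 11.0%. Tfap2a and Tfap2b carry the exons deleted in EDKO, and whether their regions lie in the deleted DNA was not tested. Of 10 genes of hemidesmosomes, desmosomes and adherens junctions, 10 had a start-site peak and 3 had a region within 50 kb, the P-cadherin gene Cdh3 with 2 and the hemidesmosomal collagen gene Col17a1 and the desmosomal gene Perp with 1 each. The share of control peaks with a region was 6.48% near the regulators (7 of 108) and 4.44% near the adhesion genes (4 of 90), against 4.48% of all control peaks.

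**Figure D4:**
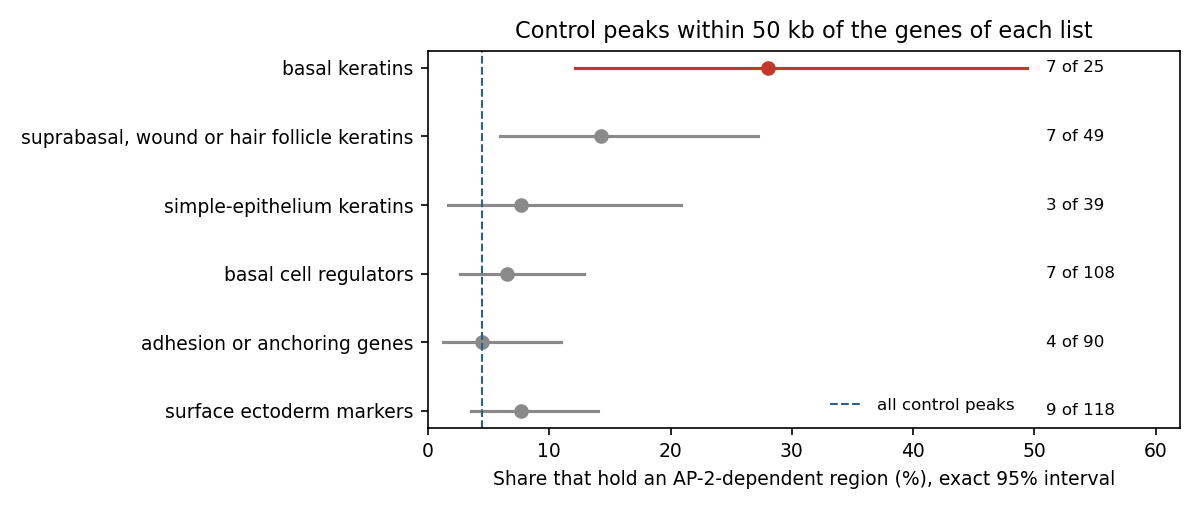
Share of control peaks within 50 kb of each gene list that hold an AP-2-dependent region, in percent. Points are shares, lines are exact binomial 95% intervals that cover counting error only, the dashed line is the share over all control peaks (4.48%), and the counts stand at the right. The basal keratins are at 28.0%, and the suprabasal and simple keratin lists share peaks with them.

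Few genes had a pattern like that of Krt5, with a region centred within 1 kb of the start site and at least 2 regions nearest to it within 50 kb. A region within 1 kb was found for 138 genes (0.631%), and 23 genes other than Krt5 met both conditions. By number of regions and then by symbol, the first were Gm21887 (14), Gm10718 and Gm10721 (4 each), Cldn8, which encodes a tight junction claudin, and Gm11168 (3 each), and Arg1, Art4, Eogt, Epgn and Frem2 (2 each). Epgn encodes an epidermal growth factor receptor ligand, and Frem2 a basement membrane protein of the embryonic skin. Gm21887 had 11 control peaks nearest to its start, Gm10718 had 1 and Gm10721 had 0. The paper attributes its most densely clustered assignments to direct repeats. Word copy number was computed only near the basal keratins, so the part of repeats in these counts was not tested.

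Ectoderm markers were open at the start site for 10 of 10 genes, against 64.1% of all genes. Markers of other cells were open for 6 of 8 cranial mesenchyme genes, 1 of 3 endothelial, 1 of 3 blood, 1 of 3 neural or Schwann and 1 of 2 muscle genes, and 0 of the 74 control peaks within 50 kb of these markers held a region, against 4.48% of all control peaks. Their part in the results was not tested. In bulk tissue, fewer cells of a type and less open chromatin per cell cannot be told apart, nor can the loss of AP-2 from the presence of Crect.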

How the data were processed

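ATAC-seq libraries of E11.5 facial ectoderm (2 control, 2 EDKO) were trimmed by the authors with NGmerge, aligned to mm10 with Bowtie2 (--very-sensitive -k 10; a read pair keeps as many as 10 alignments), sorted with SAMtools and called with Genrich (version 0.5, -j -y -r -e chrM). Control peaks were called on both control libraries against a background set by genome size, and AP-2-dependent regions on the same libraries with both EDKO libraries as background.

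Each deposited peak carries a score limited to 1000, an area under the curve (also a score) and the summit −log10 p as the authors' caller wrote them; the q-value column is unset and was not used. These values depend on the depth of each call and were compared within a list only. The lists hold no counts, so depth is unknown and no test was run. Keeping several alignments can place reads of repeats at several loci, but every peak near the basal keratins had a median 31-base word copy number of 1. Repeated words made up 10.1% of the Krt5 start-site peak and 8.75% of the peak 3.21 kb upstream of Krt5, and at most 3.10% of the others.

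Positions were taken on GRCm38 with GENCODE mouse release 21, 1 start site per gene, with Python 3.11.15, pandas 2.3.3 and scipy 1.17.1. An overlap was counted from 1 bp, and a start-site peak overlaps the 1 kb around the start. Named genes were the basal keratins, the genes nearest to a region there, 4 lists and genes like Krt5. Genes, lists and strings were chosen with earlier results of these data known. Overlap, nearest gene and string searches were tested on simulated data. Coverage tracks, RNA-seq and regions more open in EDKO were not analysed here.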

Additional observations from a re-analysis of the deposited data

How the results depend on the processing

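For 8 results, 33 alternative values were computed. Of these, 23 stayed within 1.5 times the count reported, or within the 95% interval of the share or median, among them those with limits of 25 and 100 kb, with peaks placed by their summits and with the most upstream start of any transcript. A minimum area under the curve of 500 left 1 region within 50 kb, 0 regions nearest to a basal keratin and a share of control peaks with a region of 5.00%. Requiring an overlap to fill at least 50% of each interval gave a share of 12.0%. The regions with GCCNNNGGC numbered 2 in whole regions, 0 within 50 bp of the summit and 4 with SCCYNRGGS, and the control peaks numbered 10, 1 and 8. By construction the alternatives use fewer peaks, a stricter overlap, a longer or shorter window or a more degenerate string. The area minimum kept 36.4% of all regions, against 1 of the 7 near the basal keratins. Over all control peaks the share with a region was 2.46% with this minimum and 4.48% without it. No paired analysis was possible because the libraries of each group were combined in the calls, and for the same reason no library could be left out. The depth behind a peak is unknown, so a start-site peak without a region, as at Krt17, shows that no difference was called and not that accessibility was equal.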

Other observations

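Strings of other factors were counted within 100 bp of the summits of the 7 regions near the basal keratins, on both strands. The AP-1 string TGANTCA was found in 2 regions, those at the Krt15 start and 3.17 kb upstream of Krt5, against 6.84% of all regions. A p53 family string was found in 1, 20.1 kb upstream of Krt5 and 18 bp from the summit, against 10.5%. The TEAD string GGAATG was found in 1, upstream of Krt14, against 19.2%, and the SP/KLF string GGGCGG in 1, against 9.05%. The GRHL string AACCNGTT was found in 0 of the 7 regions and 0 of the 25 control peaks, against 2.70% and 3.09% of the whole lists. With 7 regions, these counts are descriptions only.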
